A study of Homo sapiens with 6 samples.

Results

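NQO1 and the core NRF2 pathway were followed in SH-SY5Y, a long-established neuroblastoma line of human origin with noradrenergic, neuron-like features. The members were NFE2L2, which encodes NRF2, its inhibitor KEAP1 and 8 direct targets, namely NQO1, HMOX1, GCLM, GCLC, TXNRD1, SRXN1, SLC7A11 and OSGIN1. They are 10 of the 18132 genes measured and were found on 23 of the 49293 tested probe sets, those whose annotation names 1 of these genes alone. The family was chosen by a measured value, the rank of NQO1 among the largest differences between these same arrays, so the differences below are a description and support nothing by themselves.

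Cells of 3 endosulfan arrays had received 3 µM endosulfan, an organochlorine insecticide, for 24 h, a dose that the labels put below the LC50. The 3 control arrays came from the same line in the same medium with 10% serum, and their agent is labelled control. The labels attach the endosulfan treatment text to all 6 arrays, so the groups rest on the agent label, and nothing names a vehicle. The labels call the arrays biological replicates and name no culture, passage or day, so the error below measures the spread between these arrays, which may be technical. The question was how the transcripts of the pathway differ between exposed and control cells, and the number of arrays limits the precision.

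NRF2 is a transcription factor of the CNC family that KEAP1 holds in the cytoplasm and hands to a CUL3 ubiquitin ligase for degradation. Electrophiles and oxidants modify cysteines of KEAP1, so NRF2 escapes, pairs with a small MAF protein and binds antioxidant response elements. Its targets make glutathione, regenerate thioredoxin and peroxiredoxins, reduce quinones and break down haem. In neurons and neuroblastoma cells the pathway is studied as a defence against catechol quinones and other oxidants.

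RefSeq promoter windows of GRCh38.p14, from 250 bases before to 50 after a gene's start, were on hand for 8 of the 10 genes, as 11 windows, and HMOX1 and SLC7A11 had none there. The core of the antioxidant response element, TGACNNNGC on either strand, was in 4 of the 11 windows and in 3 genes, GCLM, TXNRD1 and KEAP1, against 13.3% of the 35116 windows of all genes. An AP-1 site, TGANTCA, which can overlap the element, was in 1 window, that of OSGIN1, against 7.71% of all windows. The matches are shown because the genes that hold them lay on both sides of 0 in the array data. They read along the gene's own strand, with the match in capitals and 10 bases on each side. A match at this resolution is a description of letters, and the absence of one in the NQO1, GCLC, SRXN1 and NFE2L2 windows says only that these letters are not in these 300 bases.
GCLM, chr1:93909446-93909474, minus strand, 25 bases before the start site: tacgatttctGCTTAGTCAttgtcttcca
KEAP1, chr19:10502784-10502812, minus strand, 22 bases before the start site: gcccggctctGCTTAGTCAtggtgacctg
KEAP1, chr19:10502807-10502835, minus strand, 45 bases before the start site: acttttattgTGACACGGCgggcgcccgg
TXNRD1, chr12:104286920-104286948, plus strand, 93 bases before the start site: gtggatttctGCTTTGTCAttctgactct
TXNRD1, chr12:104215670-104215698, plus strand, 90 bases before the start site: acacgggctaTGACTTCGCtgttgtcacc
OSGIN1, chr16:83953133-83953159, plus strand, 90 bases before the start site, with the AP-1 site in capitals: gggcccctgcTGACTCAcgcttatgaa
GCLM and KEAP1 held the same letters over the whole core, and the TXNRD1 window at the downstream start differed from them within the free bases. One further TXNRD1 match covers the upstream start site and is not printed.

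All expression values are log2 values made by RMA, which gives 1 number per probe set, and a difference of 1 is a doubling. A level depends on the probes, so levels of different probe sets are not compared. In the fit across all probe sets with limma and Benjamini-Hochberg adjustment, 0 of the 23 member probe sets passed an adjusted p below 0.05, against 0.00811% of all probe sets, and the smallest adjusted p among them was 0.215, that of NQO1. Unadjusted, 4 member probe sets were below 0.05 on the higher side, where 6.3% of all probe sets were, and 3 on the lower side, where 9.21% were. At gene level, with each gene's brightest probe set, 0 of the 10 passed, against 0.00552% of all genes. There 7 were on the higher and 3 on the lower side, where 39.8% of all genes were. Their median log2 fold change was 0.20, beside 0.05 over all genes. The groups did not overlap for NQO1 and KEAP1 on the higher side, where 12.4% of all genes were so placed, nor for NFE2L2 on the lower side, where 10.2% were.

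The arrays themselves differed in ways that touch these genes. Bacterial poly-A transcripts, spiked into the RNA before labelling, averaged 6.19, 7.83 and 5.84 in control 1, 2 and 3 and 7.90, 7.82 and 8.90 in endosulfan 1, 2 and 3 (log2). For GAPDH, the signal gap from the 3' to the 5' probes, which widens as RNA degrades, averaged 0.75 ± 0.06 in controls against 0.84 ± 0.04 after endosulfan (log2, SD, n = 3 each). For ACTB the same gap was larger, at 3.59 ± 0.07 in controls and 3.67 ± 0.10 after endosulfan (log2, SD, n = 3 each). Over all probe sets, control 1 deviated from its group's mean opposite to endosulfan 1 (r = -0.51, over probe sets, which are no replicates) and like endosulfan 2 (r = 0.57). The part of these differences in the results below was not tested, other than by fits that take the spike-ins' mean as a covariate or leave out both arrays numbered 1. The 10 measured noradrenergic markers were above the array median on every array, from TH at 7.65 to HAND2 at 13.19 in controls. Their log2 fold changes ran from -1.33 for ISL1 to 0.27 for PHOX2A, and the groups did not overlap, on the lower side, for ISL1, MYCN at -0.48 and GATA3 at -0.35. Their mean level was 10.89 to 10.93 in control and 10.70 to 10.73 in endosulfan arrays. Epithelial and haematopoietic markers averaged 4.25 to 4.33 and 3.77 to 3.92 in control and 4.36 to 4.42 and 3.88 to 3.95 in endosulfan arrays. In controls the epithelial ones ran from EPCAM at 3.23 to KRT8 at 5.24. The haematopoietic ones ran from PTPRC at 2.86 to CD3E at 4.55. Mesenchymal markers averaged 6.54 to 6.67 and 6.50 to 6.70, glial ones 6.08 to 6.21 and 6.00 to 6.31, and endothelial ones 5.35 to 5.67 and 5.46 to 5.78. The brightest mesenchymal markers were TWIST1 at 12.02 and VIM at 10.47 in controls. A level above the array median on every array was not particular to the noradrenergic list. It also held for 5 of 8 mesenchymal, 3 of 3 glial, 3 of 4 endothelial, 1 of 5 epithelial and 0 of 3 haematopoietic markers. None of the markers was past the threshold, and the part of their differences in the values of the NRF2 genes was not tested. These are bulk samples, in which fewer cells of a type and less RNA per cell cannot be told apart.

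**Figure D1:**
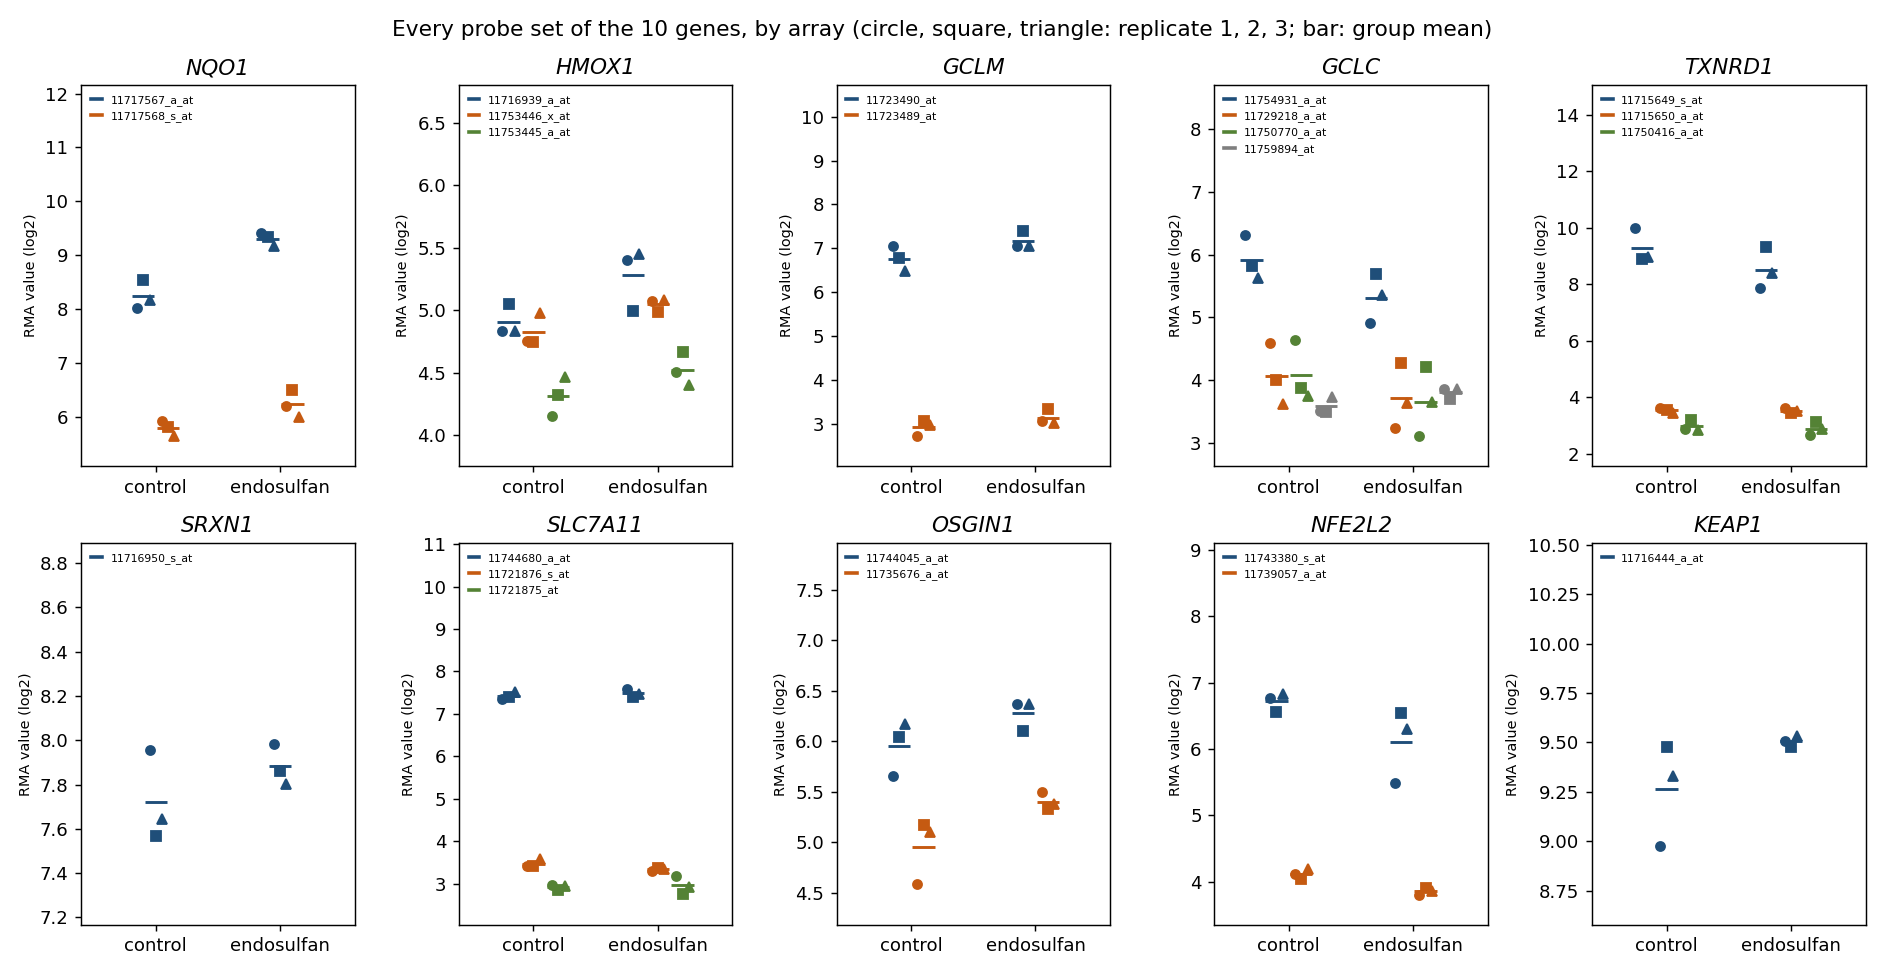
RMA values (log2, vertical axis) of all 23 probe sets in the control and endosulfan arrays, 1 panel per gene with its own axis range; colours mark probe sets, symbols the replicate number and bars the group mean (n = 3). The upper NQO1 probe set lies between 8.02 and 8.54 in control and between 9.16 and 9.41 in endosulfan arrays, while the upper TXNRD1 and GCLC probe sets spread more within a group than between the groups' means.

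NQO1, a cytosolic quinone reductase that is the usual marker of NRF2 activity, showed the largest difference among the 10 genes. On probe set 11717567_a_at it was at 8.02, 8.54 and 8.18 in control 1, 2 and 3 and at 9.41, 9.34 and 9.16 in endosulfan 1, 2 and 3. The groups did not overlap, the closest arrays being control 2 and endosulfan 3, and the exposed arrays lay closer together than the controls. Between means of 8.24 ± 0.27 and 9.30 ± 0.13 (SD, n = 3 each) the log2 fold change was 1.06 ± 0.15 (SE), or 2.09-fold.

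The second NQO1 probe set, 11717568_s_at, gave a smaller difference in the same direction. It was at 5.91, 5.80 and 5.64 in control and at 6.20, 6.50 and 5.99 in endosulfan arrays, a log2 fold change of 0.44 ± 0.15 (SE). The groups again did not overlap, although control 1 and endosulfan 3 were close. The suffix s marks probes that can match transcripts of more than 1 gene, and 5 member probe sets carry it: this one, the brightest of TXNRD1 and of NFE2L2, the single one of SRXN1 and 1 of SLC7A11. With the mean of both, NQO1 had a log2 fold change of 0.75. Over the alternatives tried, the value ran from 0.87 to 1.21 for the first probe set and from 0.31 to 0.57 for the second, with no change of sign.

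The profile of NQO1 over the 6 arrays was most like those of METRNL, G0S2, TCF15, RAB20 and MRNIP. Likeness was the root mean square distance of profiles centred on their own mean, which was 0.12, 0.16, 0.17, 0.17 and 0.18 (log2) for these 5 of 18132 genes. METRNL, a secreted meteorin-like protein, was at 6.26, 6.78 and 6.38 in control and at 7.69, 7.26 and 7.43 in endosulfan arrays. All 5 share with NQO1 the high value of control 2 among the controls, and endosulfan 1 was the highest array in each, as in NQO1. Because the 5 were picked for likeness over these same arrays, a shared order of arrays follows from the choice. In G0S2, TCF15 and RAB20 endosulfan 3 was the lowest exposed array, as in NQO1, and in METRNL and MRNIP it was endosulfan 2. No other member was near: the closest were HMOX1 at 0.40, OSGIN1 at 0.42 and KEAP1 at 0.42, ranks 1404, 1896 and 2087, and the farthest was TXNRD1 at 1.12.

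NFE2L2, the gene of NRF2 itself, was on the lower side on both of its probe sets. On the brighter, 11743380_s_at, it was at 6.77, 6.56 and 6.83 in control and at 5.50, 6.54 and 6.30 in endosulfan arrays, a log2 fold change of -0.61 ± 0.25 (SE). Endosulfan 1 stood apart, and endosulfan 2 lay just below control 2, so the groups were separate by a narrow margin. The spread among controls was 0.14 and among exposed arrays 0.54 (SD, n = 3 each).

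On 11739057_a_at NFE2L2 was at 4.11, 4.04 and 4.19 in control and at 3.81, 3.91 and 3.86 in endosulfan arrays. Here both groups were tight and did not overlap, with a log2 fold change of -0.25 ± 0.10 (SE), but the probe set was below the array median on every array. Without both arrays numbered 1 the 2 values were -0.28 and -0.23, so the first shrank by more than the second. NRF2 is controlled mainly through the stability of its protein, which arrays do not measure.

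KEAP1, the adaptor that marks NRF2 for degradation, was measured by 1 probe set, 11716444_a_at. It was at 8.98, 9.48 and 9.33 in control and at 9.51, 9.48 and 9.53 in endosulfan arrays, a log2 fold change of 0.24 ± 0.14 (SE). The groups did not overlap, but control 2 and endosulfan 2 were level to 2 decimals, and control 1 was the lowest array. Its log2 fold change was 0.10 without both arrays numbered 1 and 0.05 in the spike-in fit.

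Among the targets that handle haem, HMOX1, the inducible haem oxygenase and often the most responsive NRF2 target in other cells, lay near the array median. Its 3 probe sets had log2 fold changes of 0.38 ± 0.15, 0.22 ± 0.11 and 0.21 ± 0.13 (SE). On 11716939_a_at it was at 4.84, 5.05 and 4.83 in control and at 5.40, 4.99 and 5.45 in endosulfan arrays. Endosulfan 1 and 3 were above the controls and endosulfan 2 was within them, so the groups overlapped.

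The other 2 HMOX1 probe sets were designed on the same target sequence and are not independent of each other. On 11753446_x_at the gene was at 4.75, 4.75 and 4.98 in control and at 5.07, 4.98 and 5.08 in endosulfan arrays, with control 3 and endosulfan 2 level to 2 decimals. On 11753445_a_at it was at 4.15, 4.32 and 4.46 and at 4.51, 4.67 and 4.40, and the groups overlapped. This last probe set was below the array median on every array. In the spike-in fit the first probe set came to 0.14 and the other 2 to 0.30 and 0.31.

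The 2 subunits of glutamate-cysteine ligase, the rate-limiting enzyme of glutathione synthesis, lay on opposite sides. GCLM, the modifier subunit, had log2 fold changes of 0.39 ± 0.17 and 0.22 ± 0.14 (SE) on its 2 probe sets. On 11723490_at it was at 7.05, 6.78 and 6.48 in control and at 7.05, 7.39 and 7.05 in endosulfan arrays. Control 1 was as high as endosulfan 1 and 3, so the groups overlapped. The log2 fold change was 0.59 without both arrays numbered 1 and 0.25 without control 3. The second probe set, 11723489_at, was between 2.73 and 3.33 on all arrays, near the bottom of the scale.

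GCLC, the catalytic subunit, was on the lower side on 3 of its 4 probe sets. On the brightest, 11754931_a_at, it was at 6.32, 5.82 and 5.63 in control and at 4.91, 5.69 and 5.35 in endosulfan arrays, a log2 fold change of -0.61 ± 0.24 (SE). Endosulfan 2 lay among the controls, and the extremes were control 1 at the top and endosulfan 1 at the bottom. On 11729218_a_at it was at 4.59, 4.0 and 3.62 in control and at 3.24, 4.28 and 3.64 in endosulfan arrays.

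On 11750770_a_at GCLC had the same highest and lowest arrays, with 4.64, 3.88 and 3.76 in control and 3.11, 4.21 and 3.65 in endosulfan arrays. Control 1 was thus the highest and endosulfan 1 the lowest array on all 3. Without both of these arrays the log2 fold changes of the 3 probe sets went from -0.61, -0.35 and -0.43 to -0.21, 0.15 and 0.11, so 2 of the 3 turned. The fourth, 11759894_at, was on the higher side, from 3.58 ± 0.14 to 3.81 ± 0.09 (SD, n = 3 each). Like 11729218_a_at and 11750770_a_at, it was below the array median throughout.

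TXNRD1, the cytosolic thioredoxin reductase, a selenoprotein that keeps thioredoxin reduced, had the widest spread of the family. On 11715649_s_at it was at 9.99, 8.88 and 8.95 in control and at 7.86, 9.31 and 8.39 in endosulfan arrays. The range within each group was larger than the difference of the means, 9.27 ± 0.62 and 8.52 ± 0.73 (SD, n = 3 each), and the groups overlapped. The log2 fold change was -0.75 ± 0.41 (SE), and it was -0.06 without both arrays numbered 1. The same extremes, control 1 highest and endosulfan 1 lowest, were found on 4 of the 23 member probe sets, namely this one and the 3 of GCLC. How many of all probe sets had these extremes was not counted. Control 1 deviated opposite to endosulfan 1 over all probe sets, so the extremes are not shown to be particular to these genes.

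The other 2 TXNRD1 probe sets were dim. 11715650_a_at was between 3.43 and 3.62 on all arrays with a log2 fold change of -0.01 ± 0.11 (SE), and 11750416_a_at was between 2.65 and 3.20 with -0.09 ± 0.16 (SE). SRXN1, the sulfiredoxin that repairs overoxidised peroxiredoxins, was at 7.96, 7.57 and 7.65 in control and at 7.98, 7.86 and 7.80 in endosulfan arrays on 11716950_s_at. Control 1 was nearly as high as endosulfan 1, the groups overlapped, and the log2 fold change was 0.16 ± 0.13 (SE). It was 0.28 without control 1, 0.08 without control 2 and 0.32 in the spike-in fit.

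SLC7A11, the cystine-glutamate exchanger that supplies cysteine for glutathione, showed the smallest difference at gene level. On 11744680_a_at it was at 7.36, 7.40 and 7.52 in control and at 7.59, 7.39 and 7.47 in endosulfan arrays, a log2 fold change of 0.06 ± 0.11 (SE). The groups overlapped almost fully, and the sign turned without both arrays numbered 1, at -0.03. On 11721876_s_at all endosulfan arrays, at 3.31 to 3.36, were below all controls, at 3.41 to 3.58, a log2 fold change of -0.13 ± 0.10 (SE). The third, 11721875_at, was at 2.76 to 3.19 with 0.03 ± 0.13 (SE).

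OSGIN1, a growth inhibitor that oxidative stress induces through NRF2, was on the higher side on both probe sets. On 11744045_a_at it was at 5.66, 6.04 and 6.17 in control and at 6.37, 6.11 and 6.37 in endosulfan arrays, a log2 fold change of 0.32 ± 0.16 (SE), with endosulfan 2 below control 3. On 11735676_a_at it was at 4.59, 5.17 and 5.11 and at 5.50, 5.33 and 5.38, a log2 fold change of 0.45 ± 0.16 (SE). The groups of the second did not overlap. In both, control 1 was the lowest array, and without both arrays numbered 1 the values were 0.13 and 0.22.

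**Figure D2:**
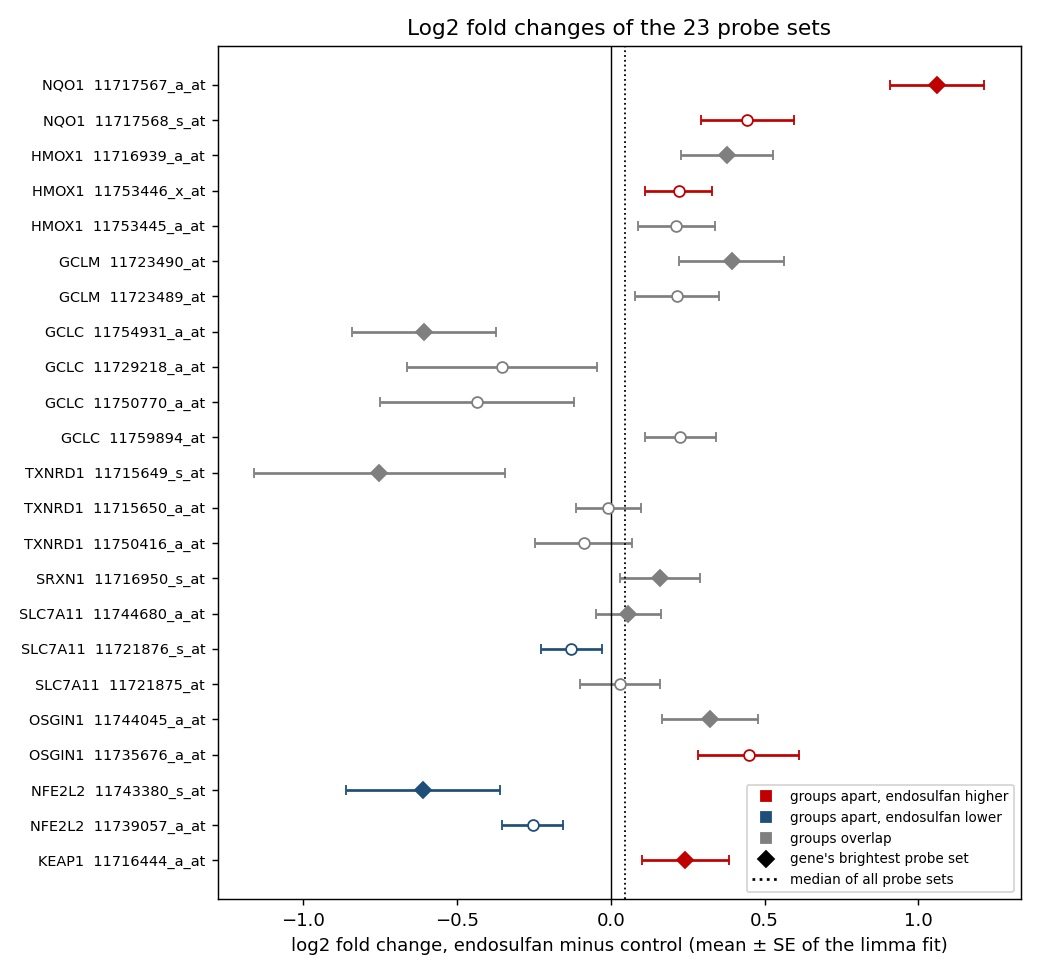
Log2 fold change (endosulfan minus control, horizontal axis) with its SE from the limma fit for each of the 23 probe sets; filled diamonds mark the brightest probe set of a gene, red and blue mark groups that do not overlap, and the dotted line is the median of all probe sets at 0.05. The first NQO1 probe set lies farthest to the right at 1.06, followed by OSGIN1 11735676_a_at at 0.45 and the second of NQO1 at 0.44, and TXNRD1, NFE2L2 and GCLC farthest to the left at -0.75, -0.61 and -0.61.

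Counted over the 23 probe sets, 14 were on the higher and 9 on the lower side, and 39.9% of all probe sets were on the lower side. The groups did not overlap on 5 probe sets in the higher direction, where 11.5% of all probe sets were so placed: both of NQO1, 1 of HMOX1, 1 of OSGIN1 and that of KEAP1. In the lower direction they did not overlap on 3, both of NFE2L2 and 1 of SLC7A11, where 9.24% of all probe sets were so placed. Of the 8 genes with several probe sets, GCLC and SLC7A11 had probe sets on both sides. Weighting the arrays by limma's estimate of their quality, which gave 5.43 to endosulfan 3 and 2.20 to control 3, put 4 of the 23 past the threshold, NQO1, HMOX1 and GCLM higher and NFE2L2 lower, against 14.4% of all probe sets in that fit. At gene level it put 5 of the 10 past it, against 32.6% of all genes.

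**Figure D3:**
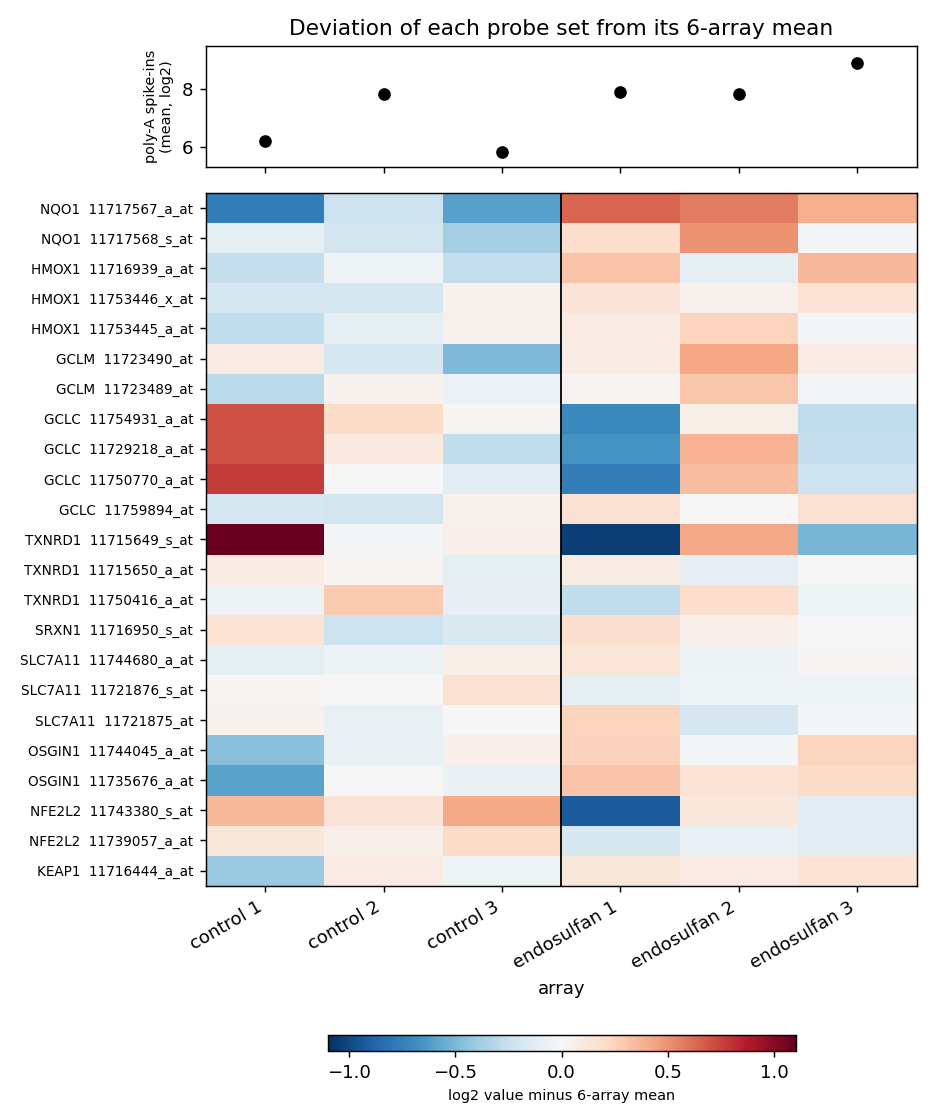
Each probe set's log2 value minus its own mean over the 6 arrays (colour, red above and blue below the mean; rows are probe sets, columns arrays), under the mean level of the poly-A spike-ins in each array (log2). The first NQO1 probe set, 11717567_a_at, is blue in all control and red in all endosulfan arrays, while TXNRD1 11715649_s_at and the 3 GCLC probe sets with the suffix a are strongest in control 1 and endosulfan 1 and red again in endosulfan 2.

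Beyond the 10 members, lists of other pathway genes held 105 genes, of which 92 were measured at gene level and 13 are not analysed here. Of the 92, 0 passed the threshold in either direction with limma and Benjamini-Hochberg adjustment, beside 0.00552% of all genes. At an unadjusted p below 0.05 there were 10 on the higher and 17 on the lower side, where 6.64% and 10.5% of all genes were. Their median log2 fold change was 0.03, beside 0.05 over all genes. In direction, 48 were on the higher and 44 on the lower side, and 39.8% of all genes were on the lower side. The direction counts of single lists below are to be read beside that share. None of the differences that follow passed the test. Each is that of a gene's brightest probe set, and for some genes other probe sets had the opposite sign. These were 1 of 2 for AKR1C3, BACH2, CYP1A1 and TIPARP, and 1 of 4 for ABCC4, CUL3, FECH and PGAM5. They were 2 of 4 for ABCC5, 2 of 5 for ARNT and CYP1B1, and 1 of 7 for CBR1. No other gene named from the lists below had one.

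Enzymes that reduce or conjugate quinones, aldehydes and carbonyls, the class of NQO1, had a median of 0.22 over 13 genes, with 9 on the higher and 4 on the lower side. The carbonyl reductases CBR3 and CBR1 were at 0.58 and 0.49 (log2 fold change), and neither had overlapping groups. CBR1 averaged 10.03 ± 0.18 in controls and 10.52 ± 0.13 after exposure (SD, n = 3 each). At the other end were UGDH, which makes UDP-glucuronate, at -0.45 and the aldo-keto reductase AKR1C3 at -0.31. NQO2, the paralogue of NQO1, was at 0.24 with groups that did not overlap, and was named after its value was seen.

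Haem and iron genes had a median of 0.18 over 8 genes, 6 of them on the higher side. BLVRB, a biliverdin reductase, was at 0.75 (log2 fold change), and the constitutive haem oxygenase HMOX2 was at 0.40. BLVRB averaged 7.65 ± 0.30 in controls and 8.40 ± 0.14 after exposure (SD, n = 3 each). Neither BLVRB nor HMOX2 had overlapping groups. The transferrin receptor TFRC, which brings iron into cells, was at -1.44 with overlapping groups, and FECH, which inserts iron into haem, at -0.08.

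In the glutathione list the median was 0.03 over 12 genes, 6 on each side. The transferases GSTM3 and GSTA4 were at -0.91 and -0.78, and SLC3A2, the partner chain of SLC7A11, and the transferase GSTP1 were at 0.32 and 0.17. Thioredoxin and peroxiredoxin genes had a median of 0.00 over 10, from the sestrin SESN1 at -1.0 and the mitochondrial peroxiredoxin PRDX3 at -0.68 to the mitochondrial TXNRD2 and TXN2 at 0.29 and 0.23. TXNRD2 and TXN2 thus lay opposite to TXNRD1, and the groups of TXNRD1, TXNRD2, TXN2 and PRDX3 overlapped. The groups of SESN1, GSTM3 and GSTA4 did not overlap, on the lower side, nor did those of SLC3A2, on the higher side. The TXNRD1 value was -0.06 without both arrays numbered 1.

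NADPH-producing enzymes had a median of 0.04 over 7 genes. The pentose phosphate enzymes TKT and PGD were at 0.53 and 0.34, and the groups of both did not overlap, while the folate enzyme MTHFD2 and the malic enzyme ME1 were at -0.89 and -0.40. Efflux transporters had a median of -0.26 over 6 genes, from ABCC5 and ABCC4 at -0.69 and -0.59 to ABCC3 and ABCC2 at 0.26 and 0.12. Of these, ABCC5 and ABCC4 on the lower side and ABCC3 on the higher side had groups without overlap.

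Genes that control NRF2 protein had a median of -0.30 over 15, of which 10 were lower and 5 higher. CAND1, which exchanges cullin substrate receptors, and GSK3B, a kinase that marks NRF2 for a second ligase, were at -0.81 and -0.79, and CUL3, the ligase scaffold itself and named after its value was seen, was at -0.60, with control 3 and endosulfan 2 level to 2 decimals. PGAM5, a phosphatase bound by KEAP1, and SQSTM1, the autophagy receptor p62 that sequesters KEAP1 and is itself an NRF2 target, were at 0.57 and 0.40. GSK3B and CUL3 on the lower side and PGAM5 on the higher side had groups without overlap, and those of CAND1 overlapped. SQSTM1 was at 9.99, 10.25 and 10.07 in control and at 10.57, 10.46 and 10.49 in endosulfan arrays, without overlap.

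Among the CNC factors and their partners, with a median of 0.13 over 9 genes, the small MAF protein MAFF was at 0.57 and NFE2L3 at 0.26. The coactivator CREBBP and the repressor BACH2 were at -0.96 and -0.68. BACH2 on the lower side and MAFF on the higher side had groups without overlap, and those of NFE2L3 overlapped. CREBBP, which acetylates NRF2, was at 8.97, 8.27 and 8.55 in control and at 7.52, 7.80 and 7.60 in endosulfan arrays, so every exposed array was below every control.

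Lists of 2 neighbouring branches share a gene with the pathway. The list of the aryl hydrocarbon receptor, of which NQO1 is also a target, had a median of 0.09 over 9 genes that include NQO1, with CYP1B1 at 0.15 and TIPARP and ARNT at -0.37 and -0.27. CYP1A1, the battery's most inducible gene, was at 0.10 and was named after its value was seen. SLC7A11 is also a target of ATF4, and the ATF4 branch had a median of -0.25 over 8 genes, with ASNS at -1.05 and ATF4 at -0.83, SLC3A2 at 0.32 and DDIT3 at 0.12. ATF4 was at 11.39, 11.57 and 11.53 in control and at 10.68, 10.53 and 10.79 in endosulfan arrays, without overlap. In the limma fit at gene level its unadjusted p was 0.000122, beside 0.000164 for NQO1, and both had an adjusted p of 0.196. The groups of ASNS did not overlap either. SLC7A11, at 0.06, lay between its partner chain and ATF4.

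**Figure D4:**
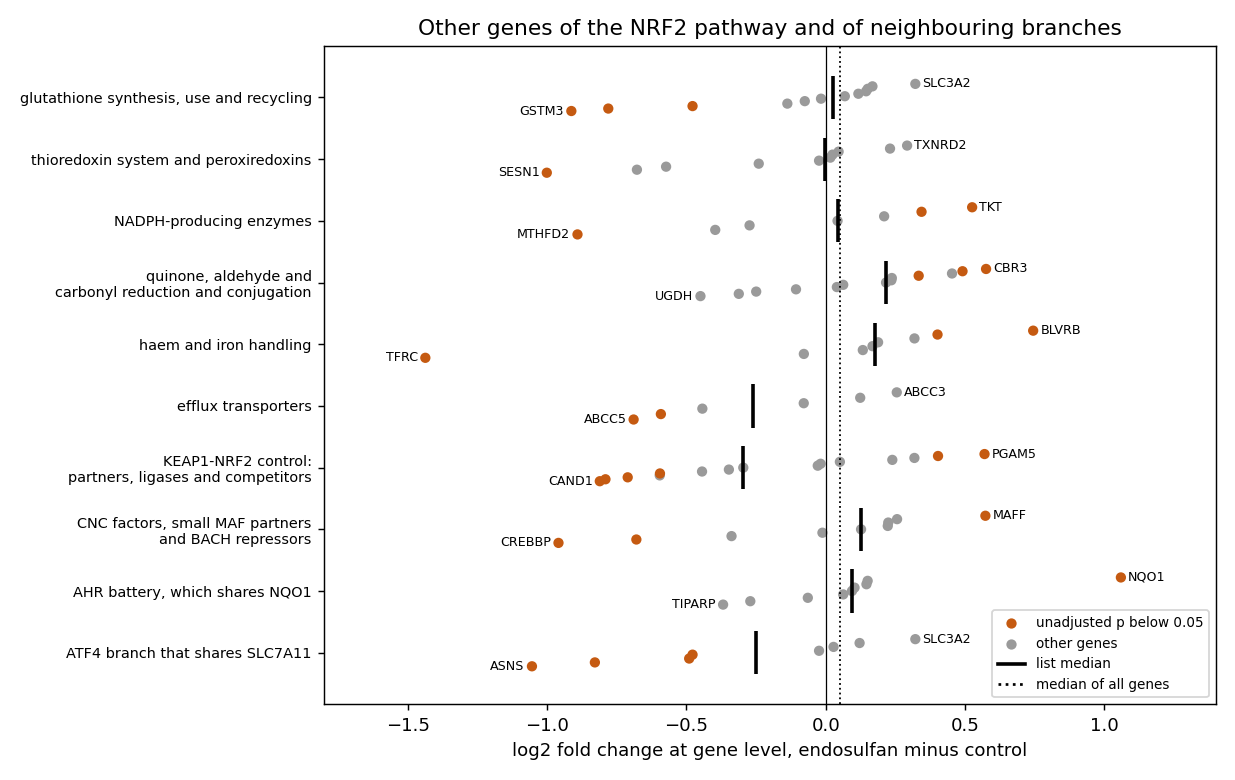
Log2 fold change at gene level (endosulfan minus control, horizontal axis) of every measured gene in 10 lists of the NRF2 pathway and neighbouring branches; each point is a gene, the black bar its list's median and orange an unadjusted p below 0.05, with the outermost genes named. Quinone and carbonyl enzymes have a median of 0.22 and the genes that control NRF2 protein one of -0.30, beside 0.05 for all genes.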

How the data were processed

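RNA of 6 samples was hybridised to 1-colour Affymetrix arrays from 6 µg of total RNA each. The deposited table holds log2 values, made by the authors with Affymetrix Expression Console and RMA per the submitters' processing notes; versions and filters are not stated there. RMA equalises the arrays' distributions, so a shift of most transcripts would be removed. The 102 control probe sets were set aside and 49293 tested; 44988 name 1 gene, 1832 several and 2473 none by the platform annotation, and 44961 of the first were found in RefSeq. Background probe sets of the arrays ran from 2.15 to 10.6, so no single detection limit was set and no probe set was removed. The fit was limma 3.58.1 (lmFit, eBayes) in R 4.3.3, endosulfan minus control, two-sided, with Benjamini-Hochberg adjustment over all probe sets or all genes. A run on simulated data with independent noise checked the code. The simulated data hold no differences between whole arrays, so that run says nothing on the part of such differences here. A gene is represented by its brightest one-gene probe set.

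Members, lists and alternatives were chosen with earlier results of these data known. Every member probe set is described; of each list the 2 largest and 2 smallest log2 fold changes are named, with genes past the threshold; likeness to NQO1 takes the 5 nearest genes. Replicate numbers were not used to pair the arrays in the main fit, because the labels do not say whether they do. Plots were made with matplotlib 3.10.9 under Python 3.11.15.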

Additional observations from a re-analysis of the deposited data

Results flagged for a closer look

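Control probe sets outside the comparison differed between the groups. For the poly-A spike-ins the means were 6.62 ± 1.06 in control and 8.21 ± 0.60 in exposed arrays (log2, SD, n = 3 each), a difference of 1.59 towards endosulfan. For the hybridisation controls they were 10.29 ± 0.29 and 10.93 ± 0.18 (log2, SD, n = 3 each), a difference of 0.63 the same way. What these differences contribute to the values of the NRF2 genes was examined by the spike-in covariate alone.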

How the results depend on the processing

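The count of member probe sets past the threshold was 0 under each alternative tried, except array weights with 4, and that of member genes was 0 except array weights with 5 (NQO1, HMOX1 and GCLM higher, NFE2L2 and TXNRD1 lower, against 32.6% of all genes). Among all features, 4 probe sets and 1 gene passed. With the replicate number as a block (replicate block) 0 and 0 passed, with the spike-in covariate 0 and 0, with array weights 7101 and 5915, without both arrays numbered 1 there were 1 and 0, and averaging the probe sets of each gene left 0 genes. With 1 array left out the counts were 0 to 7 probe sets, 7 without control 2, 1 without endosulfan 1 and 0 without any other, and 0 genes in each case; the member counts stayed at 0. The same-numbered deviations correlated at -0.51, -0.40 and 0.05. With 3 arrays a group this cannot show whether arrays of the same number were cultured or processed together. Over the alternatives run, the sign turned at least once for 2 probe sets of GCLC, 2 of TXNRD1 and 2 of SLC7A11, and for none of the other member probe sets. With 3 arrays a group and signal over background not called, dim probe sets limit what can be seen of several genes beyond their brightest probe set. These are HMOX1, GCLM, GCLC, TXNRD1, SLC7A11 and NFE2L2.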
